A study of Oryza sativa Japonica Group with 6 samples.

Results

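Among the rice transcripts whose level was raised by air-drying, a small set had a mean log level near or below control 1 day after re-watering. This set is described here. For 4 of its 12 members that mean joined a library at 0 with a library above control, and 2 members were at 0 in both libraries. At 6 of the 12 loci, the locus as a whole kept more of its rise than the limit set for members. Shoots of wild-type rice seedlings (Oryza sativa Japonica, cultivar Nipponbare) grown under continuous light gave 2 libraries for each of 3 conditions. The control was untreated, at an age of 10 days. Dehydration meant 8 h of drying in air at the same age. Rehydration meant the same 8 h of drying with 24 h of water afterwards, at an age of 11 days, so that age and re-watering cannot be told apart. Plants were pooled within each library, and by the study's own description rehydrated leaves held both recovered and weak parts. In such bulk samples, fewer cells of a type and less RNA per cell cannot be told apart.

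Members were chosen from RPKM values (read numbers scaled to transcript length and to the mapped reads of the library), which were listed for 66153 transcript models. A transcript was taken as induced if the lower of its 2 dehydration libraries was at least 4 times the higher of its 2 control libraries, with a mean of at least 1 RPKM in control and at least 20 RPKM after dehydration. For each transcript, the share of the induction left after rehydration was the difference between rehydration and control divided by that between dehydration and control, on condition means of log2(RPKM + 1). A share of 0 is the control level, a share of 1 is the dehydration level, and a negative share lies below the control. Of the 24524 transcripts with a mean control level of at least 1 RPKM, 666 (2.72%) were induced. Members were the 12 of these 666 (1.8%) with a share of at most 0.15, and the other 654 induced transcripts serve as the comparison. Because all 3 conditions entered the choice, the differences between conditions of the members are descriptions, and no test of them is read as a result.

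Drying shoots lose turgor and accumulate abscisic acid (ABA), a hormone that closes stomata and switches on genes for water retention and cell protection. On re-watering, ABA is broken down, and stress transcripts decline at rates that differ between genes. A locus can give several transcript models, which differ in splicing or in their ends, and reads that fit more than one model must be divided among them by the program that counts them. The level of 1 model can therefore move without the sum over its locus moving in the same way.

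The 12 members came from 12 loci on 8 chromosomes, by their locus identifiers. Of these, 4 carried an annotation with a function in the tables used. LOC_Os01g51420_1 was annotated as a putative calcineurin B, LOC_Os02g35190_2 as a putative chloride channel protein, LOC_Os03g05390_6 as a putative citrate transporter protein and LOC_Os01g16170_4 as a protein with a PQ loop repeat. Another 2, LOC_Os01g72570_2 and LOC_Os01g31360_4, were annotated as expressed protein only. The remaining 6 were LOC_Os12g14220_1, LOC_Os07g41600_1, LOC_Os08g36320_2, LOC_Os04g53210_3, LOC_Os04g39880_3 and LOC_Os10g35070_4, for which the tables used gave no annotation. Mean levels of the members ranged from 1.06 to 13.0 RPKM in control and from 20.2 to 77.7 RPKM after dehydration. The fold between the nearest dehydration and control libraries ranged from 4.07 to 8.76.

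**Figure D1:**
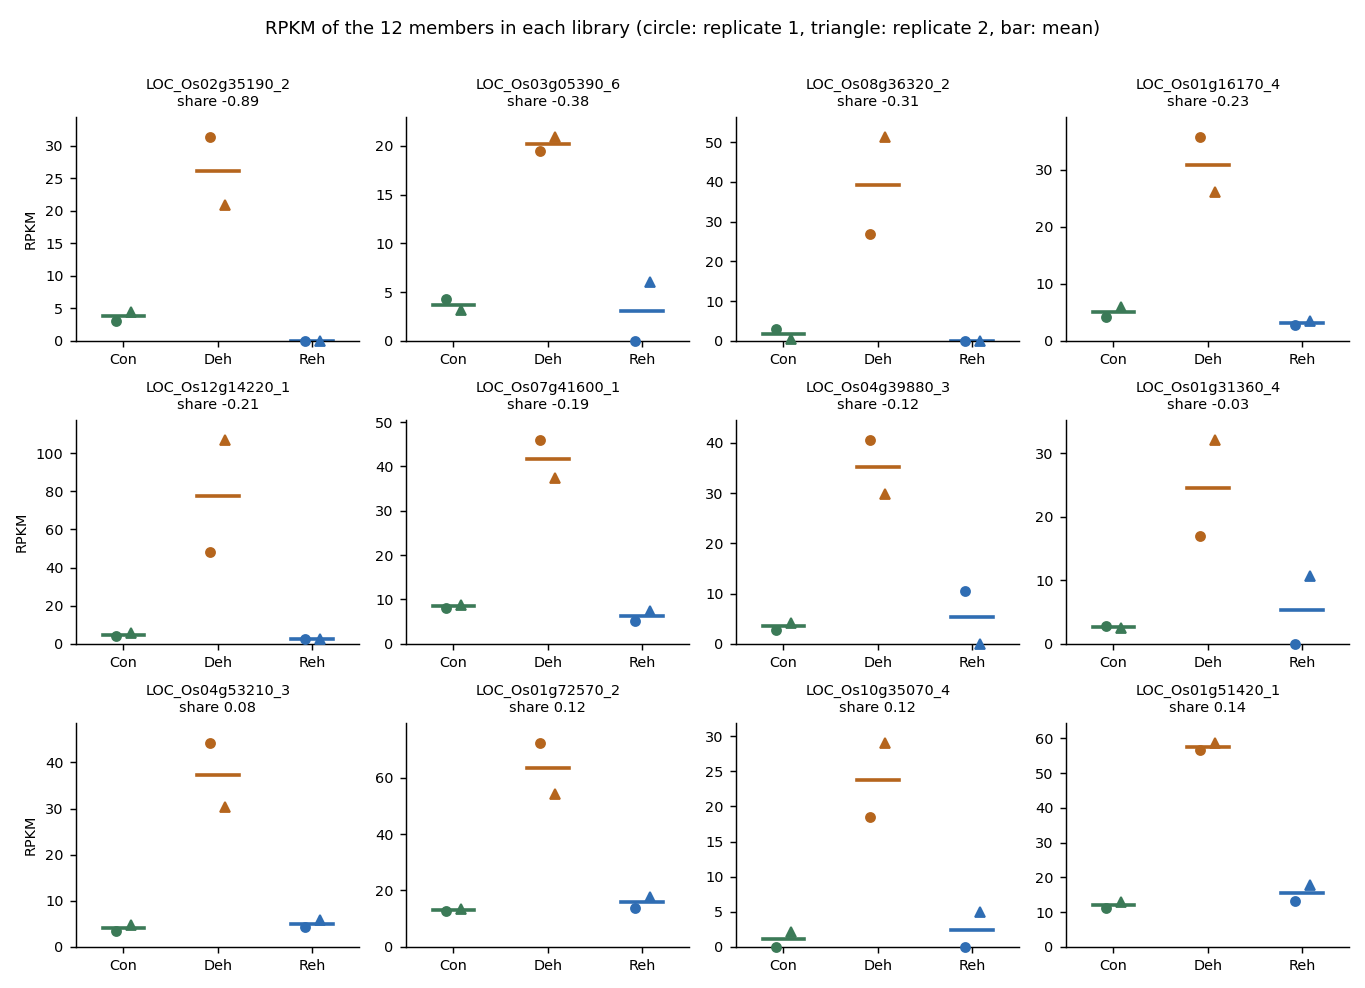
RPKM of each of the 12 members (vertical axis, from 0, a scale for each panel) in control (Con), dehydration (Deh) and rehydration (Reh), with a circle for replicate 1, a triangle for replicate 2 and a bar for their mean. In 6 panels at least 1 rehydration library is listed at 0, and in LOC_Os02g35190_2 and LOC_Os08g36320_2 both are.

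LOC_Os01g51420_1 was the only model of its locus. Calcineurin B-like proteins of plants are calcium sensors that bind and activate a family of protein kinases in stress responses. The level of LOC_Os01g51420_1 was 11.2 and 13.0 RPKM in the control libraries, 56.6 and 58.7 RPKM after dehydration, and 13.1 and 17.7 RPKM after rehydration. The dehydration mean of 57.7 ± 1.501 RPKM (SD, n = 2) was 4.75 times the control mean of 12.1 ± 1.24 RPKM (SD, n = 2). Both rehydration libraries lay above both control libraries, at a mean of 15.4 ± 3.26 RPKM (SD, n = 2), which left a share of 0.145 and made it the member nearest to the limit of the rule.

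LOC_Os12g14220_1, also the only model of its locus, had the highest mean level after dehydration of the 12 members. It was at 3.97 and 5.65 RPKM in control, 48.4 and 107 RPKM after dehydration, and 2.28 and 2.48 RPKM after rehydration. Its dehydration libraries differed by 2.21-fold, the widest gap between dehydration replicates in the set, and the lower of them was still 8.55 times the higher control library. Both rehydration libraries lay below both control libraries, for a share of -0.209. The smallest whole read numbers that gave the listed values, of which the true counts may be a multiple, were 13 and 17 in control and 7 in each rehydration library, against 143 and 348 after dehydration.

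Among the members with several models at their locus, LOC_Os02g35190_2 had the lowest share, -0.892. Chloride channel proteins of plants carry chloride and nitrate across membranes such as that of the vacuole. LOC_Os02g35190_2 was at 3.09 and 4.40 RPKM in control and 31.4 and 20.8 RPKM after dehydration, and it was listed at 0 in both rehydration libraries. The smallest whole read numbers behind its control level were 55 and 72, by which 1 read was worth at most 0.0599 and 0.0651 RPKM in the rehydration libraries. LOC_Os08g36320_2 was the other member listed at 0 in both rehydration libraries. It was at 3.08 and 0.362 RPKM in control, an 8.50-fold gap between replicates, and at 27.0 and 51.3 RPKM after dehydration.

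LOC_Os01g16170_4 was above 0 in all libraries, as were 6 members in all. PQ loop repeats occur in membrane proteins, several of which are transporters. Its level was 4.15 and 6.02 RPKM in control, 35.8 and 26.1 RPKM after dehydration, and 2.73 and 3.53 RPKM after rehydration. The rehydration mean of 3.13 ± 0.566 RPKM (SD, n = 2) lay below the control mean of 5.08 ± 1.32 RPKM (SD, n = 2), with no overlap of libraries and a share of -0.229. LOC_Os07g41600_1 had the same order. Its libraries were at 8.16 and 8.76 RPKM in control, 46.0 and 37.3 RPKM after dehydration and 5.04 and 7.47 RPKM after rehydration, for a share of -0.186. In all, 5 members had both rehydration libraries below both control libraries, 2 had both above, and 5 had overlapping libraries. The limit on the share favours rehydration values near or below control, so these counts follow in part from the rule. The same counts over all transcripts are not given here, and nothing is read from them.

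LOC_Os01g72570_2 and LOC_Os04g53210_3 had positive shares of 0.119 and 0.0849. LOC_Os01g72570_2 was at 12.6 and 13.3 RPKM in control, 72.5 and 54.4 RPKM after dehydration, and 13.9 and 17.8 RPKM after rehydration. With LOC_Os01g51420_1 it was 1 of the 2 members whose rehydration libraries both lay above control. LOC_Os04g53210_3 was at 3.41 and 4.67 RPKM in control, 44.2 and 30.4 RPKM after dehydration, and 4.23 and 5.75 RPKM after rehydration, so that rehydration and control overlapped.

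For 4 members the share rested on 1 rehydration library at 0 and the other above both control libraries. Proteins of the citrate transporter family carry organic acids and other anions across membranes. LOC_Os03g05390_6, of that annotation, was at 4.28 and 3.15 RPKM in control, 19.5 and 20.9 RPKM after dehydration, and 0 and 6.06 RPKM after rehydration. LOC_Os04g39880_3 was at 2.74 and 4.23 RPKM in control and 40.6 and 29.9 RPKM after dehydration, and its rehydration libraries were at 10.6 RPKM and 0. LOC_Os01g31360_4 was at 2.77 and 2.43 RPKM in control and 17.0 and 32.1 RPKM after dehydration, and its rehydration libraries were at 0 and 10.7 RPKM. LOC_Os10g35070_4 had the lowest control mean and was listed at 0 in 1 control and 1 rehydration library, with at most 2.12 RPKM in control and at most 4.89 RPKM after rehydration. For LOC_Os03g05390_6, LOC_Os04g39880_3 and LOC_Os01g31360_4 the rehydration libraries thus stood on opposite sides of the control.

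By the rule, the members stood at the low end of the distribution of shares. The 666 induced transcripts had a median share of 0.604 with quartiles of 0.484 and 0.719, and the 385 that were the only model of their locus had a median of 0.633. Among the 654 that were not members, the median levels were 6.91 RPKM in control, 85.2 RPKM after dehydration and 32.8 RPKM after rehydration. The members had medians of 3.89, 36.3 and 4.06 RPKM in the same order, and their low level after rehydration follows from the rule. The induced transcripts just outside the limit were LOC_Os02g35770_1, a putative homeobox leucine zipper protein, with a share of 0.169, and LOC_Os01g21630_1, an enzyme acting on pectin by its annotation, with a share of 0.182. LOC_Os02g35770_1 was at 2.61 and 4.64 RPKM in control, 36.2 and 31.3 RPKM after dehydration, and 5.81 and 4.94 RPKM after rehydration, beside LOC_Os01g51420_1 at 0.145 just inside.

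**Figure D2:**
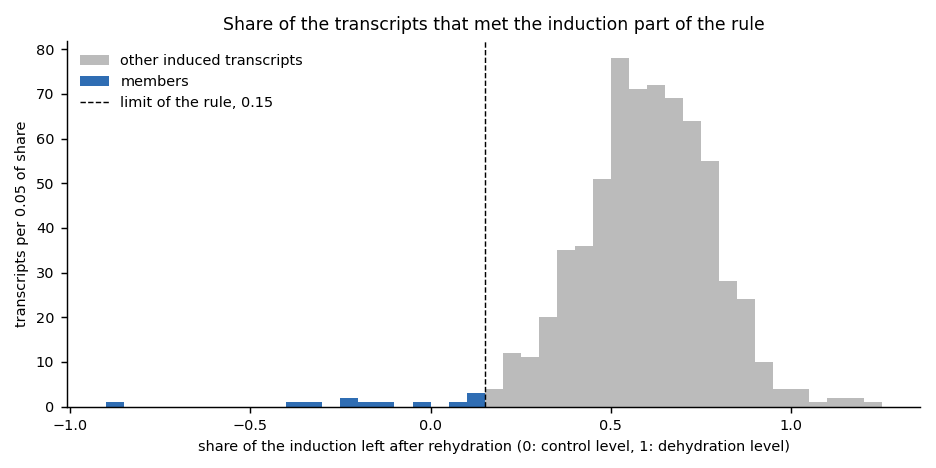
Histogram of the share of the induction left after rehydration (horizontal axis, no unit) for the 666 induced transcripts, with the number of transcripts per bin of 0.05 on the vertical axis. The 12 members (blue) lie left of the dashed limit at 0.15, with the lowest at -0.892, and the median of all 666 is 0.604.

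Of the 12 members, 10 (83.3%) came from loci with several models, against 41.4% of the 654 induced transcripts that were not members and 25.4% of all listed transcripts. This difference was not tested. Of the transcripts that the rule chose on 1 replicate number alone, 27 of 37 (73.0%) for number 1 and 20 of 32 (62.5%) for number 2 came from such loci. Members made up 8 of these 37 and 6 of these 32, and the libraries were the same, so these percentages are no independent repeat. Among the other induced transcripts grouped by share, loci with several models made up 46.3% of 82 transcripts with shares of 0.15 to 0.40, 50.4% of 236 at 0.40 to 0.60, 38.5% of 260 at 0.60 to 0.80 and 18.4% of 76 over 0.80. A value of 0 in at least 1 rehydration library was listed for 6 members and for 1 of the other 654. A value of 0 lowers the share, so this follows in part from the rule.

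**Figure D3:**
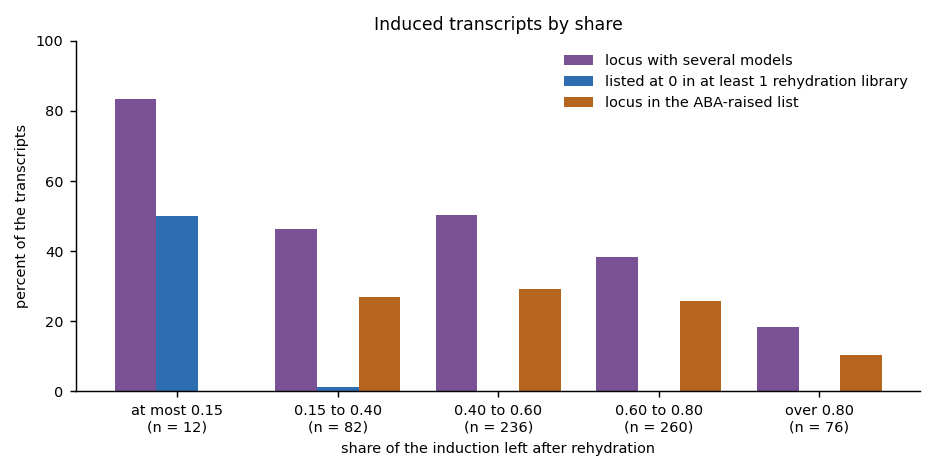
Percent of the induced transcripts (vertical axis) in 5 ranges of share (horizontal axis, n in brackets) that came from a locus with several models (purple), were listed at 0 in at least 1 rehydration library (blue) or belonged to a locus in the ABA-raised list (orange). The members, at the left, show 83.3%, 50% and 0%.

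Because most members shared their locus with other models, those models were examined next. They were not members, but the rule was applied to all models. LOC_Os10g35070_1 and LOC_Os01g72570_1 met its induction part and had shares of 0.543 and 0.854, over the limit. Their dehydration calls therefore follow in part from the rule. The other models were tested in limma with all 26790 transcripts of at least 1 RPKM in at least 2 libraries. The 10 loci with several models held 34 other models, of which 28 in 9 loci could be tested. A transcript was called if its Benjamini-Hochberg adjusted p was under 0.01 and its fold over 2. After dehydration 13 of the 28 were called higher than in control and none lower in limma, where 8.97% of all tested transcripts were called higher. With the fold and a p under 0.05 before adjustment, 19 were higher and none lower, against 14.4% and 24.8% of all tested transcripts. Their median log2 fold change was 1.37, against -0.30 for all tested transcripts, and 26 of the 28 were positive. Scaling the libraries by median ratios moved the median of all tested transcripts to -0.02 and gave 14 calls among the other models, where 12.6% of all tested transcripts were called higher. With that scaling 55.1% of all dehydration calls were higher, against 40.1% without it. These models share their gene, and in part their reads, with the members, so they are no independent draw. Models of the same locus share them with each other too, and LOC_Os03g05390 alone held 12 of the 34. The 28 are therefore not separate units, and the background percentages count transcripts, not loci.

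Fewer calls were made when any 1 library was left out. Such a fit has fewer libraries behind its shared estimate of the spread, so the counts do not show what a single library contributed. The rehydration libraries are not part of this comparison. Without either of them the log2 fold change of LOC_Os03g05390_9 stayed at 1.43, and its call was lost. Leaving out control replicate 1 gave 1 call among the other models, and leaving out control replicate 2 gave 3. Omission of dehydration replicate 1 gave 4 calls and that of replicate 2 gave 7, and for rehydration these were 7 and 8. LOC_Os10g35070_1 was the model called in all 6 of these fits.

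LOC_Os10g35070_1 was at 12.8 and 6.72 RPKM in control, 237 and 199.9 RPKM after dehydration, and 54.1 and 52.3 RPKM after rehydration. It rose by a log2 fold change of 4.40 ± 0.29 (SE) on dehydration (limma, adjusted p = 0.000488). It had met the induction part of the rule, so this call follows in part from the rule. After rehydration it was called lower than after dehydration, with a log2 fold change of -2.01 ± 0.29 (limma, adjusted p = 0.00889), and its share was 0.543. LOC_Os10g35070_4, the member at this locus, made up 9.54% of the locus after dehydration. The share of the member was 0.122.

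For rehydration against dehydration, 2 of the 28 other models were called lower and none higher, where the backgrounds were 1.01% and 4.32%, and neither call held in any of the 6 fits with 1 library left out. One was LOC_Os10g35070_1. The other, LOC_Os01g16170_5, was at 1.26 and 0.688 RPKM in control, 10.4 and 5.82 RPKM after dehydration, and 0 and 0.419 RPKM after rehydration, with a log2 fold change of -2.89 ± 0.39 (limma, adjusted p = 0.00754). For rehydration against control none of the 28 was called in limma, with backgrounds of 0.776% higher and 0.0709% lower. With the fold and a p under 0.05 before adjustment, 10 were higher and none lower in that comparison, against 7.89% and 4.95% of all tested transcripts. For rehydration against dehydration at that threshold 8 were lower and 1 higher, against 6.26% and 18.4%.

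The RPKM of all models was also summed for each locus. These sums include the member, which was chosen for its rise and return, so they follow in part from the rule and were not tested. Summed over models, dehydration libraries were above control libraries at all 10 loci, by a fold of means between 2.00 and 21.8 with a median of 4.22. The share of the summed level was at most 0.15 at 4 of the 10 loci, LOC_Os02g35190, LOC_Os01g16170, LOC_Os07g41600 and LOC_Os04g53210. At the other 6 it was between 0.341 and 0.796. With the 2 members that were the only model, 6 of the 12 loci returned to a share of at most 0.15 as a whole and 6 did not.

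**Figure D4:**
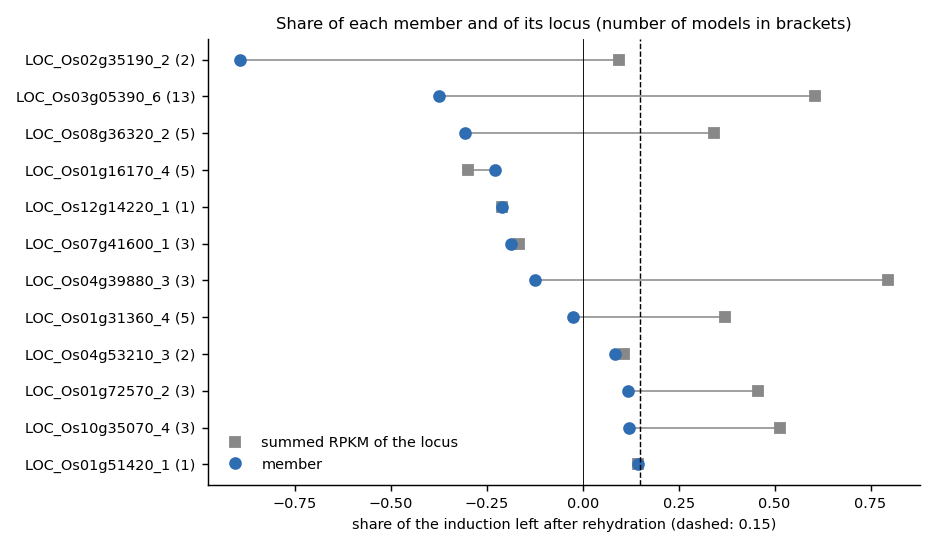
Share of the induction left after rehydration (horizontal axis, no unit) for each member (blue circle) and for the summed RPKM of its locus (grey square), with the number of models of the locus in brackets and the limit of 0.15 dashed. At 6 loci the grey square lies right of the limit, up to 0.796 for LOC_Os04g39880.

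At LOC_Os01g16170 each tested model was lower in both rehydration libraries than in both dehydration libraries. The main model, LOC_Os01g16170_1, was at 17.9 and 3.80 RPKM in control, 72.5 and 28.5 RPKM after dehydration, and 11.9 and 7.92 RPKM after rehydration. The locus as a whole went from a mean of 22.3 ± 4.70 RPKM in control to 103 ± 49.98 RPKM after dehydration and 14.1 ± 2.96 RPKM after rehydration (SD, n = 2 each), a share of -0.299. LOC_Os01g16170_4 held a similar part of its locus in each condition, at 22.8%, 30.1% and 22.1% of the mean.

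LOC_Os04g53210 and LOC_Os07g41600 likewise returned as whole loci. LOC_Os04g53210_1, the more abundant model beside LOC_Os04g53210_3, was at 14.5 and 21.8 RPKM in control, 169 and 69.6 RPKM after dehydration and 23.0 and 20.7 RPKM after rehydration. It rose by a log2 fold change of 2.54 ± 0.43 (limma, adjusted p = 0.00558), a call kept only without dehydration replicate 2 among the fits with 1 library left out. The share of the locus was 0.107. At LOC_Os07g41600 the member made up 96.5% of the summed control level and 100% of that after dehydration, so member and locus were nearly the same measure.

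LOC_Os02g35190 returned as a locus, but its models behaved differently. LOC_Os02g35190_1 was at 14.2 and 15.2 RPKM in control, 11.1 and 20.2 RPKM after dehydration, and 19.0 and 20.8 RPKM after rehydration, and was not called for dehydration (log2 fold change 0.03 ± 0.29, limma, adjusted p = 0.941). LOC_Os02g35190_2 made up 17.9% and 22.4% of the locus in the control libraries, 73.9% and 50.7% after dehydration and 0% after rehydration. The locus sum was 2.27 times higher after dehydration than in control.

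At the other 6 loci the share of the locus was above 0.15 and that of the member was not, and 5 of these members were listed at 0 in at least 1 rehydration library. LOC_Os04g39880_1 was at 22.7 and 40.8 RPKM in control, 88.5 and 109 RPKM after dehydration, and 107 and 85.4 RPKM after rehydration, and the locus share was 0.796. At LOC_Os03g05390, with 13 models, the member was 2.22% of the control sum, and the locus share was 0.605. LOC_Os03g05390_4, its most abundant model, was at 87.7 and 91.4 RPKM in control, 128 and 193 RPKM after dehydration, and 87.9 and 109 RPKM after rehydration, and was not called for dehydration (limma, adjusted p = 0.0415). LOC_Os01g72570_1 was at 3.12 and 3.47 RPKM in control, 20.4 and 36.8 RPKM after dehydration, and 17.3 and 24.5 RPKM after rehydration, while LOC_Os01g72570_2 was near its control level. LOC_Os01g72570_2 made up 68.6% of its locus after dehydration and 42.8% after rehydration.

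**Figure D5:**
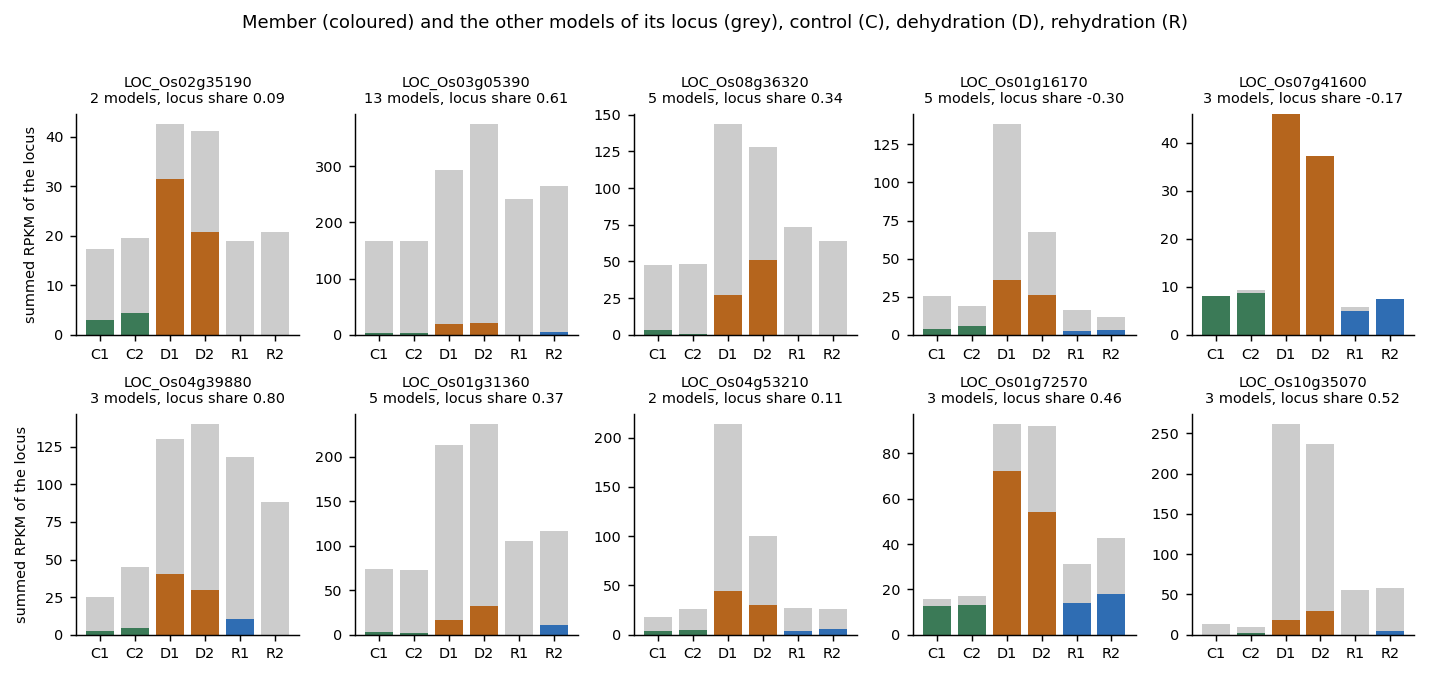
Summed RPKM of the models of each of the 10 loci with several models (vertical axis, from 0, a scale for each panel) in the libraries of control (C1, C2), dehydration (D1, D2) and rehydration (R1, R2), with the member coloured and the other models grey. The member was the most abundant model of its locus at 2 loci in control, 3 after dehydration and 1 after rehydration.

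Over the 10 loci the member made up a median of 14.1% of the locus in control, 27.5% after dehydration and 4.98% after rehydration. For 6 members the part of the locus was higher in both dehydration libraries than in both control libraries, and for 5 it was lower in both rehydration libraries than in both dehydration libraries. Members were chosen for a rise and a return, so these parts follow in part from the rule. The same counts for models that are not members are not given here. Applied to summed loci, the rule found 601 induced loci, and 3 of them met it as a whole. They were LOC_Os12g14220, LOC_Os01g51420 and LOC_Os04g59420, the last named after its values were seen. LOC_Os04g59420 summed to 3.06 and 4.87 RPKM in control, 20.8 and 30.3 RPKM after dehydration, and 2.68 and 4.69 RPKM after rehydration. Its model LOC_Os04g59420_1 had a fold of 3.52 between nearest libraries and so was no member.

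To describe how far the choice of members rested on single libraries, the rule was applied to the libraries of 1 replicate number at a time. The libraries numbered 1 gave 37 transcripts, of which 19 were induced in the libraries numbered 2 and 8 met the whole rule there. The libraries numbered 2 gave 32 transcripts, of which 19 were induced and 8 met the whole rule in the libraries numbered 1. In the libraries not used for the choice, the transcripts still induced had median shares of 0.201 and 0.191, against 0.632 and 0.550 for all transcripts induced there. These medians leave out the chosen transcripts that were not induced there, and the difference was not tested. Both numbers chose 8 transcripts, 5 of them members, which were LOC_Os12g14220_1, LOC_Os07g41600_1, LOC_Os04g53210_3, LOC_Os02g35190_2 and LOC_Os01g16170_4. These 5 were also the members kept when any 1 of the 6 libraries was left out. LOC_Os10g35070_4 was kept in 3 of those 6 settings, and LOC_Os03g05390_6, LOC_Os01g31360_4 and LOC_Os01g51420_1 in 4.

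None of the 12 members was at a locus in the hormone and pathway lists used here. The hormone lists were of loci raised or lowered by ABA or by the auxin indole acetic acid, and lists for jasmonic acid were not used. Pathway lists taken by annotation words came from these hormone lists, so they could hold no member either. The ABA-raised list, loci raised by ABA in seedling shoots on microarrays, held 166 of the 654 other induced transcripts (25.4%), with a median share of 0.587 and a lowest share of 0.169. In limma 349 of its 804 tested transcripts were called higher and 25 lower on dehydration, where 8.97% and 13.4% of all tested transcripts were called, with a median log2 fold change of 1.43. The count of 349 was 147 when control replicate 1 was left out, 183 when control replicate 2 was, and 221 when dehydration replicate 1 was. By its largest changes, the list was led by LOC_Os01g50910_1, a late embryogenesis abundant protein of the kind that protects dried cells. It was at 0.479 and 0.174 RPKM in control, 394 and 349.7 RPKM after dehydration and 80.6 and 55.6 RPKM after rehydration, with a share of 0.699. LOC_Os07g34520_2, annotated as similar to isocitrate lyase of the glyoxylate cycle, was next in size of change and had a share of 0.692.

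The lists nearest to the annotated members were those of membrane transport and calcium signaling, taken by annotation words from the hormone lists, and their calls stand beside the same 8.97% higher and 13.4% lower. For membrane transport, 12 of 51 tested transcripts were called higher and 13 lower on dehydration in limma, with a median log2 fold change of 0.45. With 1 library left out, the higher calls numbered between 3 and 10, and median-ratio scaling gave 14 higher and 10 lower. Its largest changes were those of LOC_Os07g47100_2 and LOC_Os07g47100_1, 2 models annotated as similar to a sodium/proton antiporter, with shares of 0.590 and 0.492. Its 5 induced transcripts had shares from 0.192 to 0.795, the lowest being that of LOC_Os11g07600_1, an ABC transporter. LOC_Os11g07600_1 was at 3.04 and 1.85 RPKM in control, 24.3 and 18.9 RPKM after dehydration and 4.27 and 3.52 RPKM after rehydration. For calcium signaling, 6 of 19 were called higher and 1 lower, between 3 and 6 higher with 1 library left out, with a median log2 fold change of 1.18. Its 3 induced transcripts had shares from 0.426 to 0.735, the highest that of LOC_Os04g43200_1, which encodes an EF-hand protein and was at 2.63 and 6.84 RPKM in control, 750.5 and 453 RPKM after dehydration and 195 and 144 RPKM after rehydration. LOC_Os03g14590_1, annotated as a calcium-binding EF hand protein, was second in size of change with a share of 0.604. LOC_Os01g51420_1, the calcineurin B member, had a share of 0.145.

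In the limma fit, 8 of the 12 members were called higher after dehydration than in control, where 8.97% of all tested transcripts were, and 8 were called lower after rehydration than after dehydration, where 1.01% were. None was called between rehydration and control, where 0.776% of all were called higher and 0.0709% lower. Nothing is read from these counts, because the members were chosen on the same contrasts. Across libraries, depth relative to control replicate 1 was between 0.862 and 1, and summed RPKM was between 539105 and 573137. Leaf markers were present in the shoots of all conditions. The chlorophyll a/b-binding protein transcript LOC_Os11g13890_1 was at 1556 and 1252 RPKM in control, 34.6 and 74.0 RPKM after dehydration, and 1367 and 1063 RPKM after rehydration, and its part in the members' values was not tested.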

How the data were processed

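Total RNA of pooled shoots was sequenced as stranded mRNA libraries. The authors mapped the reads to the rice genome (MSU annotation) with CLC Genomics Workbench and deposited RPKM per transcript model for each library. How that program divided reads among models of a locus is not given in the sources used here. RPKM are not counts, so the edgeR test of the study was replaced by limma 3.58.1 (R 4.3.3) on log2(RPKM + 1) with a trend, with 6 libraries in 1 fit of 3 groups. Transcripts of at least 1 RPKM in at least 2 libraries were tested, 26790 in all, and calls needed an adjusted p under 0.01 and a fold over 2. Fold changes on this scale understate those of low transcripts. The labels name replicates as biological, and p-values measure the spread between 2 libraries a group.

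Relative depth was read from the commonest ratio of low RPKM between libraries. Read numbers are the smallest whole numbers that gave a transcript's 6 values within 0.002 and may be a fraction of the true counts. Whole numbers were found for 100% of the 666 induced transcripts.

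The members and lists were chosen with earlier results of these data known. All 12 members are named, each with its library values or range, and for each list described the 2 called transcripts with the largest change. Transcripts named for the lowest or highest share in a list were chosen after their values were seen. The procedure was tested on simulated data. Other steps used Python 3.11.15, numpy 2.4.6, pandas 2.3.3 and matplotlib 3.10.9. Alternatives covered the limits of the rule, scaling, the pseudocount, the filter, locus sums, single libraries and a replicate block. Promoter motifs of members were not analysed here.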

Additional observations from a re-analysis of the deposited data

How the results depend on the processing

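The set of 12 changed with the limits of the rule. A share of at most 0.25 gave 28 transcripts, a fold of at least 3 gave 24 and a fold of at least 6 gave 6. Median-ratio scaling between libraries gave 22, with 11 of the 12 among them, and LOC_Os10g35070_4 was lost. Summed loci gave 3, only models of a locus gave 2, and the libraries numbered 1 or 2 alone gave 37 and 32. With 1 library left out the rule gave between 15 and 29 transcripts, holding 7 to 12 of the 12. A share of at most 0.10 gave 9 and a pseudocount of 0.1 gave 12.

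Across all transcripts, limma made 5987 calls between dehydration and control, 227 between rehydration and control, and 1427 between rehydration and dehydration. With 1 library left out these counts ranged from 1097 to 4508, from 0 to 129 and from 0 to 1482. The pseudocount of 0.1 gave 142 and 702 calls for the last pair of comparisons, and testing without the filter gave 53 and 10. The other models of the member loci called higher on dehydration numbered between 1 and 8 with 1 library left out, against 13, and the ABA-raised transcripts between 147 and 286, against 349. The causes were not tested. Among the main counts, of members, calls per comparison, other models and ABA-raised transcripts, 40 were labelled moved and 25 the same. Among single transcripts and lists, 77 values kept their direction but lost the call, 99 moved and 384 were labelled the same. The label was broad. It covered a change from 208 to 268 transcription factor transcripts called higher on dehydration under median-ratio scaling. It also covered counts at 0 in all settings, such as late embryogenesis abundant and dehydrin transcripts called lower. No called value changed sign under the alternatives run.

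Same-numbered libraries were not treated as pairs in the main fit. Their deviations had weak positive correlations, of 0.058 between control and dehydration, 0.13 between control and rehydration and 0.197 between dehydration and rehydration. Whether libraries of the same number shared a batch is not stated in the labels. With the replicate block the 3 comparisons gave 6317, 284 and 1358 calls, the other models 14 and the ABA-raised list 370. The 2 libraries per group limit the precision of all these values.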

Other observations

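In the ABA-raised list no induced transcript had a share of at most 0.15. The membrane transport and calcium signaling lists, and the next lists, were picked by annotation words from the hormone-responsive loci. Those loci held no member, so these lists could hold no member either. The lists do not hold all genes of their kind. Protein phosphatases 2C include negative regulators of ABA signaling. Of 10 tested transcripts in that list, 8 were called higher and 1 lower on dehydration in limma, where 8.97% and 13.4% of all tested transcripts were, with a median log2 fold change of 3.21, and the 6 induced ones of the list had shares from 0.520 to 0.772. With 1 library left out, 6 or 7 were called higher. LOC_Os06g48300_1 was at 3.51 and 5.40 RPKM in control, 579 and 519 RPKM after dehydration and 199.6 and 180.3 RPKM after rehydration, and LOC_Os09g15670_1 had a share of 0.753. LOC_Os03g16170_1, a putative protein phosphatase 2C outside this list, was also induced, with a share of 0.716. In the list of late embryogenesis abundant and dehydrin genes, 12 of 13 tested transcripts were called higher and none lower, beside the same 8.97% and 13.4%, with a median of 4.30, and 7 to 11 were called higher with 1 library left out. LOC_Os11g26570_1, a dehydrin, had a share of 0.712. The 4 induced transcripts of the list had shares from 0.712 to 0.846.

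Of the 8 transcripts that met the rule in the libraries of each replicate number alone, 3 were not members, which were LOC_Os12g13890_2, LOC_Os11g47820_1 and LOC_Os01g65650_1. They were named after their values were seen. Their shares in the libraries numbered 1 and 2 were -0.232 and -0.317 for LOC_Os12g13890_2, 0.133 and 0.138 for LOC_Os11g47820_1, and 0.0196 and -0.329 for LOC_Os01g65650_1.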
